A study of Mus musculus with 27 samples.

Results

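Liver RNA was analysed for 10 genes of the Nrf2 antioxidant response, taken from the 55414 genes of the count table by matching the Ensembl identifiers to the symbols Nfe2l2, Slc7a11, Gclc, Gclm, Gsr, Txnrd1, Srxn1, Nqo1, Hmox1 and Osgin1. All 10 were found. Nrf2, the protein of Nfe2l2, is a transcription factor that the adaptor Keap1 holds in the cytoplasm and hands over for degradation in unstressed cells. Oxidants and electrophiles modify Keap1, Nrf2 then accumulates in the nucleus and, paired with a small Maf protein, binds antioxidant response elements (AREs) near genes for glutathione synthesis, thioredoxin recycling, quinone reduction and haem breakdown. In liver the pathway is known for its part in detoxification, and carbon tetrachloride (CCl4) is a hepatotoxin that hepatocyte cytochromes turn into radicals.

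The mice were female Balb/c, 8 weeks old, and were treated for 2 weeks. Control mice (n = 4 libraries) received olive oil into the peritoneum and PBS into the tail vein. The 4MU group (n = 3) received olive oil and 4-methylumbelliferone (4MU), an inhibitor of hyaluronan synthesis, by daily gavage at 600 mg/kg, and its labels name no tail vein injection. The siLuc-LNP and siHAS2-LNP groups (n = 3 each) received olive oil and lipid nanoparticles with siRNA against luciferase, which mice lack, or against Has2, a hyaluronan synthase, at 1 mg/kg and then 0.5 mg/kg. The CCl4 group (n = 2) received CCl4 in place of olive oil as a model of toxic fibrosis. The CCl4 + 4MU group (n = 4) received it with 4MU, and the groups CCl4 + siLuc-LNP (n = 4) and CCl4 + siHAS2-LNP (n = 4) with the particles. The libraries come from whole liver, so fewer cells of a type and less RNA per cell cannot be told apart. The labels number the libraries of a group as replicates, each is called a mouse here, and p-values measure the spread between these libraries only.

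Libraries held 7044386 to 29425937 counts, the lowest in CCl4 + siHAS2-LNP mouse 4. Has2, the gene targeted by siHAS2-LNP, had 0 counts in 25 of 27 libraries and at most 2 in the others, so its knockdown could not be checked at this depth. Hepatocyte markers were high in all 8 groups, with none of the 6 that matched at 0. Of the 10 members, 9 passed the minimum of a mean of 10 counts per library, and Slc7a11 did not, as it had 0 to 3 counts in each mouse without CCl4.

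Stretches with an ARE core are shown because this element is what ties the genes of the pathway together. The core, TGACNNNGC, was searched on both strands of GRCm39 from 1000 bases before to 50 after the start of each canonical GENCODE transcript. It was present for 6 of 10 members (60.0%), for 32.4% of 68 other pathway genes and for 30.4% of 21627 protein-coding genes. Gclc, Nqo1, Hmox1 and Osgin1 had no match. Elements outside this window, or with letters other than this core, were not searched, so no match does not mean that a gene lacks the element. The stricter site TGACTCAGC, which is the core with each N fixed, was in 0 of 10 member promoters and 1.4% of all. For each of the 6 members, the match nearest to the start is printed with its flanks, 5′ to 3′ along the gene. Capitals mark the core, which reads GCNNNGTCA where it lies on the opposite strand.
Nfe2l2, chr2:75535229-75535258, minus strand, 262 bases before the start: ttcagcccaccTGACTCCGCcatgccccgg
Slc7a11, chr3:50398915-50398944, minus strand, 870 bases before the start: ccaaaaaatatGCCCTGTCAtctccttcct
Gclm, chr3:122039061-122039090, plus strand, 54 bases before the start: cgctcccgggcGCACCGTCAactctcacga
Gsr, chr8:34142739-34142768, plus strand, 516 bases before the start: ccaagaaagccGCTTGGTCActgtgacctt
Txnrd1, chr10:82694937-82694966, plus strand, 65 bases before the start: actggatttttGCTTTGTCAttctgacacg
Srxn1, chr2:151947461-151947490, plus strand, 28 bases after the start: ggcagtgggcaGCTAGGTCAgagtgagaca
For Gsr and Txnrd1 the canonical transcript starts inside the span of the gene, and the match printed lies within that span. The GRCm39 sequence is that of the C57BL/6J strain and not of Balb/c. A match is a description of letters and not a site of binding.

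By gene, Nfe2l2 (ENSMUSG00000015839) lies at 75504739 to 75534985 of chromosome 2 and Srxn1 (ENSMUSG00000032802) at 151947436 to 151957687 of the same chromosome. Chromosome 3 holds Slc7a11 (ENSMUSG00000027737, 49846975 to 50398070) and Gclm (ENSMUSG00000028124, 122039126 to 122065061), and chromosome 9 holds Gclc (ENSMUSG00000032350, 77661797 to 77701770). On chromosome 8 lie Gsr (ENSMUSG00000031584, 34142551 to 34188192), Hmox1 (ENSMUSG00000005413, 75820241 to 75827217), Nqo1 (ENSMUSG00000003849, 108113835 to 108129934) and Osgin1 (ENSMUSG00000074063, 120152470 to 120173000). Txnrd1 (ENSMUSG00000020250) lies on chromosome 10 at 82669785 to 82733546. Genes on the opposite strand overlap Nfe2l2, Slc7a11, Gclm and Txnrd1, and their median levels were at most 0.705 CPM (counts per 1000000, with library totals scaled by TMM).

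In control liver, levels per kilobase of the canonical transcript were highest for Osgin1, a growth inhibitor induced by oxidative stress, at 78.6 ± 33.3 CPM per kb (SD, n = 4), and for Gclc, the catalytic subunit of the enzyme that limits glutathione synthesis, at 76.7 ± 8.22. Ranges of these genes overlapped between mice. Gclm, the modifier subunit of the same enzyme, followed at 40.6 ± 3.71 and Txnrd1, cytosolic thioredoxin reductase, at 30.5 ± 5.14 CPM per kb, each apart from its neighbours. Gsr, which regenerates reduced glutathione, and Nfe2l2 overlapped at 18.9 ± 2.24 and 17.1 ± 2.02. Hmox1, which breaks down haem, stood apart at 9.53 ± 1.54. Srxn1, which repairs overoxidised peroxiredoxins, and Nqo1, a quinone reductase, overlapped at 5.96 ± 0.240 and 5.32 ± 0.671 CPM per kb. Slc7a11, the cystine importer subunit, was lowest at 0.00707 ± 0.00583.

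Injury was compared in 4 arms that share no mouse, each time CCl4-treated mice against mice with the same agent and no CCl4. With all mice in the fit, Nfe2l2 rose in 3 arms and Gclm fell in 2. Txnrd1, Srxn1, Hmox1 and Osgin1 passed the test there in none. That fit estimates spread from the mice of all groups, so these non-calls do not rest on the compared mice alone. The counts were 3 of 9 members in CCl4 against control, where 34.0% of all 14114 genes passed, 3 of 9 in CCl4 + 4MU against 4MU (23.7%), 1 of 9 in the siLuc-LNP arm (24.2%) and 1 of 9 in the siHAS2-LNP arm (12.8%). In no arm did the members' share stand far above that of all genes. In the average of the 4 arms, 2 of 9 members passed, against 51.9% of all genes, and the median log2 fold change was -0.13 over the members and -0.015 over all genes.

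For Nfe2l2 the control mice were at 57.6, 54.4, 62.7 and 71.1 CPM and the CCl4 mice at 87.7 and 117.5 CPM. The groups did not overlap, and the level was 1.67-fold higher (log2 fold change 0.74, SE 0.158, adjusted p = 0.000856, edgeR quasi-likelihood test). Without CCl4 mouse 2 the log2 fold change was 0.54 (adjusted p = 0.0629). The siLuc-LNP mice were at 73.7, 70.2 and 64.5 CPM and the CCl4 + siLuc-LNP mice at 121.8, 102.5, 108.7 and 137.3 CPM, again without overlap (log2 fold change 0.76, SE 0.145, adjusted p = 0.00043). The siHAS2-LNP mice were at 69.8, 60.8 and 69.4 CPM and the CCl4 + siHAS2-LNP mice at 107.8, 126.8, 135.7 and 108.6 CPM (log2 fold change 0.85, SE 0.145, adjusted p = 0.000315). In these 3 arms every CCl4-treated mouse stood above every mouse of its reference group. The same held for 25.7% of all genes in CCl4 against control, 13.7% in the siLuc-LNP arm and 15.2% in the siHAS2-LNP arm. In the 4MU arm the groups overlapped, as 4MU mice were at 83.7, 80.6 and 72.1 CPM and CCl4 + 4MU mice at 89.4, 72.9, 98.0 and 75.3 CPM (log2 fold change 0.09, 95% confidence interval -0.20 to 0.38, adjusted p = 0.686). Over the 4 arms the log2 fold change was 0.61 (SE 0.0738, adjusted p = 2.30e-07), and 12 of 14 CCl4-treated mice were above all 13 others. How many of all genes reach such a count was not determined.

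**Figure D1:**
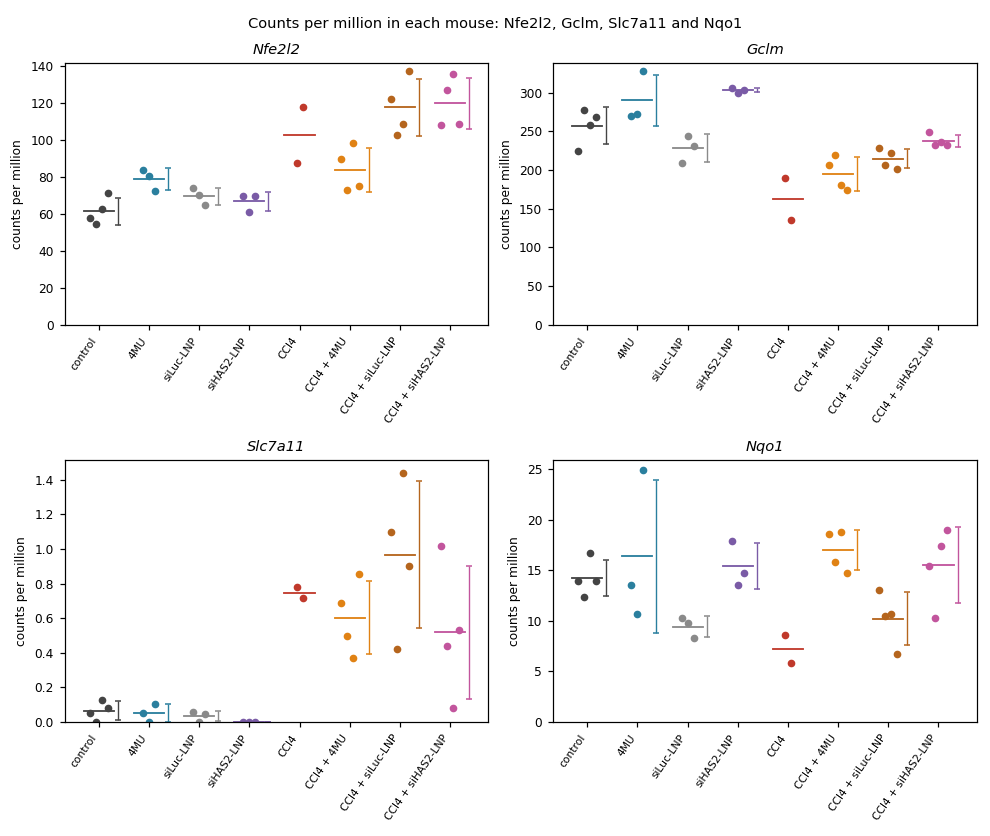
CPM of Nfe2l2, Gclm, Slc7a11 and Nqo1 in each of 27 mice, by group, with points for mice, lines for means and side bars for the SD in groups of 3 or 4. Nfe2l2 in CCl4, CCl4 + siLuc-LNP and CCl4 + siHAS2-LNP mice lies at 87.7 to 137.3, above all mice without CCl4, and the group mean of Nqo1 is lowest in CCl4, with mice at 8.57 and 5.84.

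Slc7a11 imports cystine for glutathione synthesis, and its counts per library are given because it is scarce. Control mice had 1, 0, 3 and 2 counts, 4MU mice 1, 0 and 2, siLuc-LNP mice 1, 0 and 1, and siHAS2-LNP mice 0, 0 and 0. The CCl4 mice had 16 and 19 counts, CCl4 + 4MU mice 16, 10, 10 and 24, CCl4 + siLuc-LNP mice 28, 11, 24 and 26, and CCl4 + siHAS2-LNP mice 26, 9, 2 and 4. Of the 14 CCl4-treated mice, 13 had more counts than any mouse without CCl4, and the other, CCl4 + siHAS2-LNP mouse 3, had 2. The share of all genes with such a split was not determined. With counts pooled by group, the level was 10.5-fold higher in CCl4 than in control (95% exact interval 4.35 to 30.4), 13.2-fold in the 4MU arm (4.30 to 65.7) and 26.5-fold in the siLuc-LNP arm (7.13 to 222.4). In the siHAS2-LNP arm, where the reference group had 0 counts, the ratio was 10.9 when set against 3 counts over that group. This ratio has no interval and leaves out counting error, so it is not a lower limit like those of the other arms. CCl4 + siHAS2-LNP mouse 1 gave 26 of the 41 counts, and without it the ratio so set was 5.93, while it was 6.61 and 7.23 without siHAS2-LNP mouse 1 or 2. In the 4MU arm the ratio was 7.98 without 4MU mouse 2 and 27.5 without mouse 3. These intervals cover counting error only. When all 31177 genes with a count were tested, Slc7a11 passed in each arm, with adjusted p from 8.87e-06 to 0.000513, where 14.9%, 11.0%, 11.2% and 6.31% of genes passed in the order of the arms above.

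Among the glutathione enzymes, Gclm was at 224.1, 278.1, 258.8 and 268.9 CPM in control mice and at 189.2 and 135.1 CPM in CCl4 mice. It fell by 0.67 on the log2 scale (SE 0.151, adjusted p = 0.00146), and by 0.42 without CCl4 mouse 2 (adjusted p = 0.114). In the 4MU arm the values were 270.4, 272.0 and 328.5 CPM without CCl4 and 206.3, 219.8, 180.2 and 173.7 CPM with it. Gclm fell by 0.57 there (SE 0.129, adjusted p = 0.00208), and the groups did not overlap. In the siHAS2-LNP arm all CCl4 + siHAS2-LNP mice, at 232.3 to 249.5 CPM, were below all siHAS2-LNP mice, at 299.9 to 306.2 CPM, with a log2 fold change of -0.35 (SE 0.129) and an adjusted p of 0.072. DESeq2 (-0.37, adjusted p = 0.0193) and limma-voom (-0.37, adjusted p = 0.00876) called it lower there. In the siLuc-LNP arm the groups overlapped (-0.09, SE 0.129, adjusted p = 0.663). Groups without overlap and a lower level were found for 24.9% of genes in CCl4 against control, 17.7% in the 4MU arm and 12.5% in the siHAS2-LNP arm. The average over the 4 arms was -0.42 (SE 0.0672, adjusted p = 1.27e-05), and 7 of 14 CCl4-treated mice lay below all 13 others. For this count, too, the share of all genes was not determined.

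Gclc and Gsr passed the test in the 4MU arm and in no other arm. Gclc was at 332.6, 347.7 and 851.3 CPM in 4MU mice and at 252.6, 220.6, 223.4 and 169.0 CPM in CCl4 + 4MU mice (log2 fold change -1.24, SE 0.277, adjusted p = 0.00206). Gsr was at 60.4, 53.6 and 92.4 CPM in 4MU mice and at 37.4, 33.7, 38.7 and 36.1 CPM in CCl4 + 4MU mice (-0.92, SE 0.229, adjusted p = 0.00516). Neither gene's groups overlapped, but mouse 3 of the 4MU group was far above the other 4MU mice. Without it the log2 fold changes were -0.65 for Gclc (adjusted p = 0.0772) and -0.64 for Gsr (adjusted p = 0.0721). Srxn1 (0.66, adjusted p = 0.00336) and Hmox1 (1.00, adjusted p = 0.00472) then passed in this arm as higher by edgeR. In that fit 2150 genes passed. In the other 3 arms the values were -0.17, 0.29 and 0.09 for Gclc and 0.10, 0.08 and -0.31 for Gsr, each with an interval that spans 0.

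**Figure D2:**
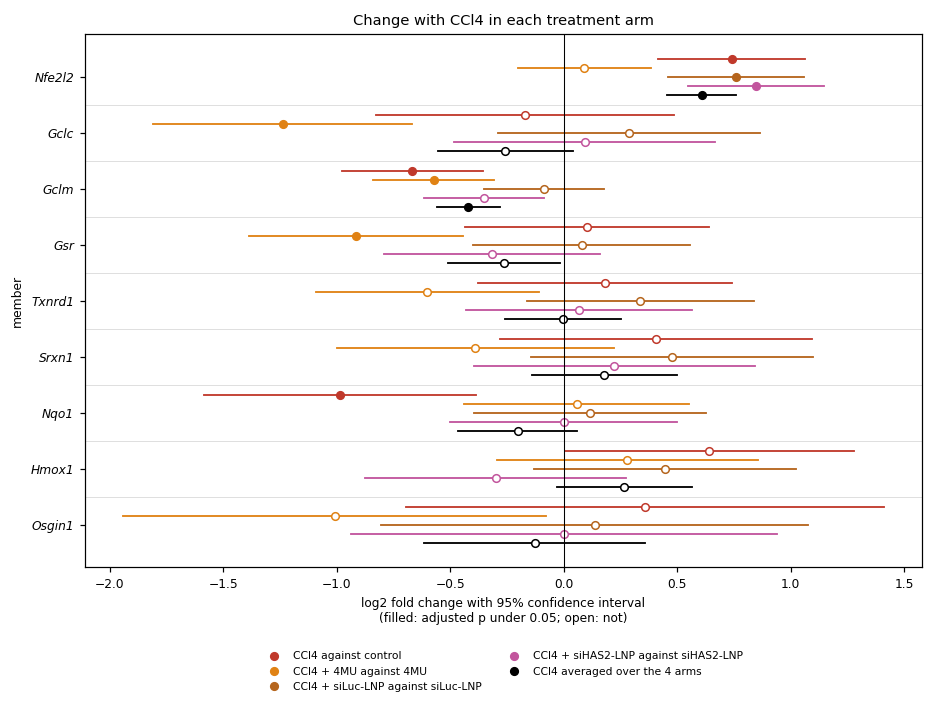
Log2 fold change with CCl4 in each of the 4 arms and their average, with 95% confidence intervals, for the 9 tested members, filled where the adjusted p is under 0.05. Nfe2l2 lies right of 0 at 0.74, 0.76 and 0.85 in 3 arms and at 0.09 in the 4MU arm, and Gclm lies left of 0 in all 4.

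In the thioredoxin branch, Srxn1 was higher in all mice of CCl4 (56.3 and 57.4 CPM) than in control (41.1 to 45.1 CPM). With a log2 fold change of 0.41 (SE 0.333) and an adjusted p of 0.365 it did not pass. This SE comes from the fit of all groups, with 4MU mouse 3 at 172.0 CPM among them, and not from the compared mice alone. That mouse was not left out singly in this comparison. Srxn1 passed here under none of the alternatives, which include a fit of control and CCl4 mice only. All mice of CCl4 + siLuc-LNP (50.7 to 58.6 CPM) and CCl4 + siHAS2-LNP (53.3 to 71.0 CPM) were also above those of siLuc-LNP (33.2 to 42.9 CPM) and siHAS2-LNP (48.5 to 52.6 CPM). In the background, groups without overlap and a higher level were found for 25.7%, 13.7% and 15.2% of genes in these 3 comparisons. CCl4 + 4MU mice, at 52.1 to 72.0 CPM, lay above 4MU mice 1 and 2, at 41.3 and 40.3 CPM, and below mouse 3, at 172.0 CPM. Without that mouse, the average over the 4 arms was 0.44 (adjusted p = 9.69e-06) in place of 0.18 (SE 0.154, adjusted p = 0.343). Txnrd1 averaged -0.0039 over the arms (95% confidence interval -0.26 to 0.25).

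Of the enzymes for quinone and haem, Nqo1 was at 13.9, 12.3, 16.7 and 13.9 CPM in control mice and at 8.57 and 5.84 CPM in CCl4 mice. It fell by 0.99 on the log2 scale (SE 0.290, adjusted p = 0.0109), with no overlap. Without CCl4 mouse 2 the log2 fold change was -0.71 (adjusted p = 0.212). In the other arms Nqo1 differed by 0.06, 0.12 and -0.00080, each with an adjusted p of at least 0.774. Hmox1 was higher in CCl4 mice, at 17.7 and 29.2 CPM, than the control mean of 15.0 ± 2.43 CPM (SD, n = 4), with overlap and an adjusted p of 0.112 (0.64, SE 0.309). Its average over the arms was 0.27 (SE 0.144, adjusted p = 0.124), and 0.45 without 4MU mouse 3 (adjusted p = 0.00115). Osgin1 varied widely within groups, with an SD of 67.0 around 158.0 CPM in control, and its average was -0.13 (SE 0.236, adjusted p = 0.669).

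**Figure D3:**
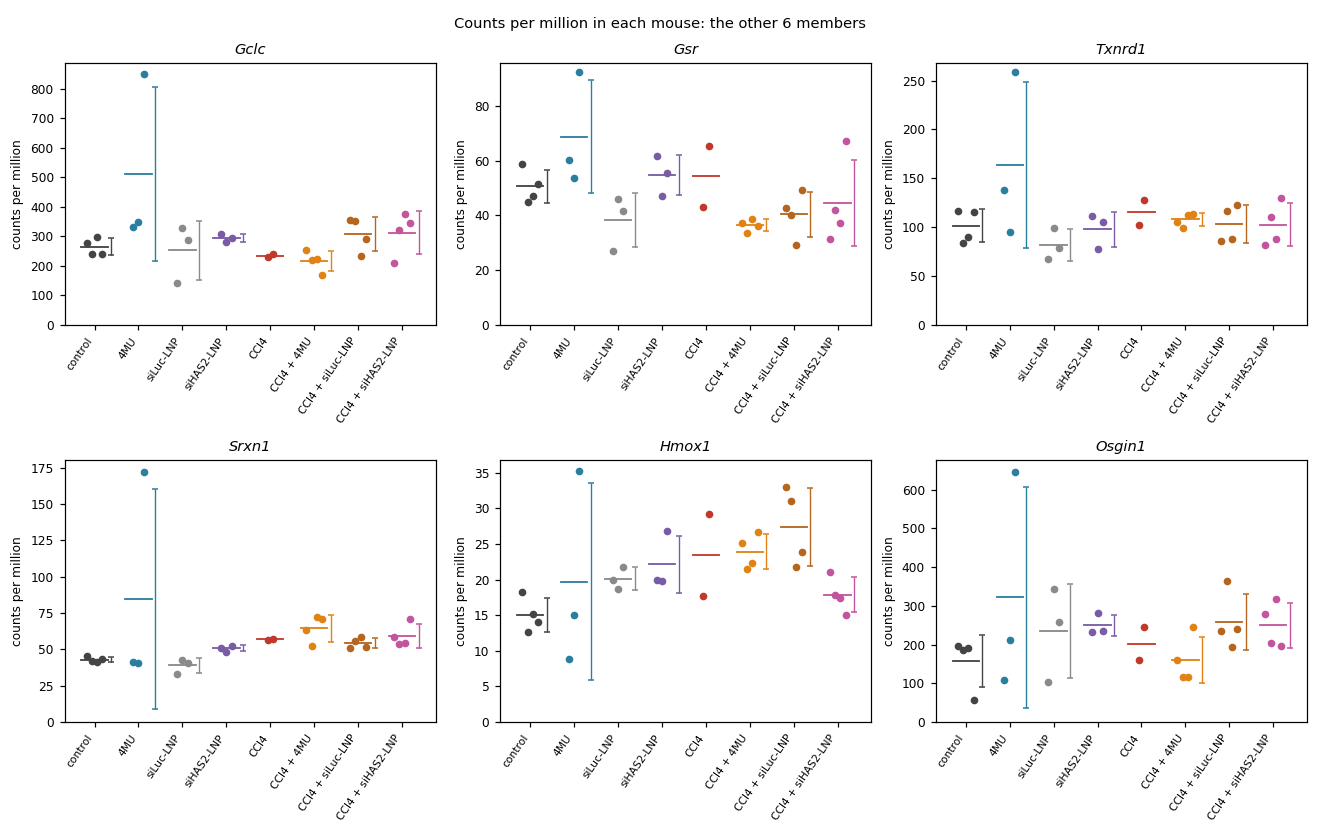
CPM of Gclc, Gsr, Txnrd1, Srxn1, Hmox1 and Osgin1 in each of 27 mice, by group, with points for mice, lines for means and side bars for the SD in groups of 3 or 4. Mouse 3 of the 4MU group is the highest point of each panel, for example at 851.3 for Gclc and 172.0 for Srxn1.

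Sums of some cell marker lists differed between control and CCl4 mice as well. The summed level of 7 pericentral hepatocyte markers was 6626 to 10139 CPM in control and 572 to 919 CPM in CCl4, and 8 monocyte and macrophage markers were at 123 to 155 and 529 to 546 CPM. The 5 proliferation markers were at 6.38 to 10.8 CPM in control and 289 to 552 CPM in CCl4. The sum over the hepatocyte markers was 158087 to 196505 CPM in control and 127623 and 72550 CPM in CCl4 mice 1 and 2. That of 7 stellate cell and fibroblast markers was 206 to 290 and 477 to 598 CPM, and that of 5 bile duct markers 4.33 to 11.6 and 16.4 to 23.8 CPM. No marker matched in the table was at 0 in any of these groups. CCl4 mouse 2, without which the calls of Nfe2l2, Gclm and Nqo1 were lost, had the lower pericentral and the higher proliferation sum of the pair. The part of these shifts in the member values was not tested.

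Around the members, 7 lists of 68 pathway genes were examined, of which 66 were tested. In the average of the 4 arms 12 were higher and 25 lower, which is 56.1% of the 66 against 51.9% of all genes, with a median log2 fold change of -0.17. The counts of single lists below have the same background, of which 26.3% of all genes were higher and 25.6% lower. Antioxidant enzymes outside the list fell in 4 of 6 cases and rose in none. These were Sod1 (-0.82), cytosolic superoxide dismutase, Gpx1 (-0.66), a glutathione peroxidase, Cat (-0.61), catalase, and Sod2 (-0.41), mitochondrial superoxide dismutase, with adjusted p from 3.55e-06 to 0.00144. Of 11 regulators 4 were lower, Bach2 (-0.89), Sqstm1 (-0.61), which binds Keap1, Mafg (-0.37), a partner of Nrf2, and Rbx1 (-0.24), a part of the ligase that degrades Nrf2. Thioredoxins and peroxiredoxins were lower in 3 of 8 cases, Prdx6 (-0.75), Txn1 (-0.45) and Txnrd2 (-0.33).

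Detoxification and export genes were split, with 8 of 23 higher and 8 lower. The largest values were 2.77 for Gsta1, a glutathione transferase (SE 0.440, adjusted p = 1.15e-05), 1.64 for Akr1b7 and 1.53 for Akr1b8, both aldo-keto reductases, and -1.61 for Gstm6 (SE 0.141, adjusted p = 8.87e-10). Gsta1 was scarce in control, at 0.177 to 0.409 CPM, where 3 counts are 0.102 to 0.426 CPM by library. In the 4MU mice Gsta1 was at 0.0512, 0.117 and 5.47 CPM. Akr1b8 was at 0.641 to 1.02 CPM in control. In glutathione supply and use, Gpx3 (1.53), a secreted peroxidase, and Gss (0.29), glutathione synthetase, were higher, and Slc3a2 (-0.71), the partner chain of Slc7a11, and Glrx (-0.33) were among 3 that were lower. NADPH supply had Me1, malic enzyme, lower (-1.25) and Pgd (0.45) and Taldo1 (0.32), of the pentose phosphate pathway, higher. For haem and iron, Blvrb (-0.97), a biliverdin reductase, and Ftl1 (-0.47), ferritin light chain, were lower. All these passed at an adjusted p of 0.0157 or less.

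In uninjured liver, 4MU was compared with control. No member passed (0 of 9, against 0.00709% of genes, which was 1 gene), although all 9 log2 fold changes were positive, with a median of 0.44 over the members and -0.0020 over all genes. At an unadjusted p under 0.05, 5 members and 966 of 14114 genes passed, and without the filter on low counts, 3 members passed (Gclc, Srxn1 and Osgin1, where 0.436% of genes did). Gclc, with a log2 fold change of 0.95 (SE 0.277, adjusted p = 0.323), and Nfe2l2, with 0.36 (SE 0.142, adjusted p = 0.577), were higher in all 4MU mice than in all control mice. Groups without overlap and a higher level were found for 3.47% of genes. Of the 66 pathway genes, 0 passed by edgeR and 4 were at an unadjusted p under 0.05.

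Mouse 3 of the 4MU group stood apart for most members, but not for Nfe2l2, where it was the lowest of the 4MU mice at 72.1 CPM. Srxn1 was at 41.3, 40.3 and 172.0 CPM in the 3 mice, against 41.1 to 45.1 CPM in control. Osgin1 was at 109.3, 210.7 and 645.7 CPM, Txnrd1 at 138.0, 94.7 and 258.3 CPM and Nqo1 at 13.6, 10.6 and 24.9 CPM. Hmox1 was at 8.91, 15.0 and 35.3 CPM, so mice 1 and 2 lay within or below the control range of 12.6 to 18.3 CPM and mouse 3 above it. Without mouse 3 the log2 fold changes of 3 members turned, to -0.072 for Srxn1, -0.24 for Nqo1 and -0.33 for Hmox1. The other 6 stayed positive, at 0.42 for Nfe2l2, 0.36 for Gclc, 0.20 for Txnrd1, 0.17 for Gsr, 0.075 for Gclm and 0.019 for Osgin1, and none of the 9 passed the test (adjusted p at least 0.781). The members' score, the mean of their standardised log2 CPM, was 2.31 in that mouse, and the next highest of the 27 was 0.535.

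Among the 13 mice without CCl4, 4MU mouse 3 was the highest for 8 of 9 members and for 25 of 66 pathway genes, while it was the highest for 9.14% of all genes. Of these pathway genes, 14 of 23 were for detoxification and export and 4 of 6 for haem and iron, and 0 of 6 were for NADPH supply and 0 of 6 were other antioxidant enzymes. Gsta2, a glutathione transferase, was at 11.3, 14.6 and 82.2 CPM in the 3 4MU mice and at 15.0 to 24.9 CPM in control. Gstp1 was at 314.9, 196.4 and 798.8 CPM, and Ugdh, which makes the donor for glucuronidation, at 92.7, 79.5 and 329.0 CPM. These 3 were picked after their values were seen. The mouse had 20775142 counts in all, a mitochondrial share of 3.30% and a sum of 151071 CPM over the hepatocyte markers. The other 4MU mice had 19584208 and 25902878 counts, 3.65% and 3.23% of mitochondrial counts and hepatocyte sums of 122822 to 147559 CPM.

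**Figure D4:**
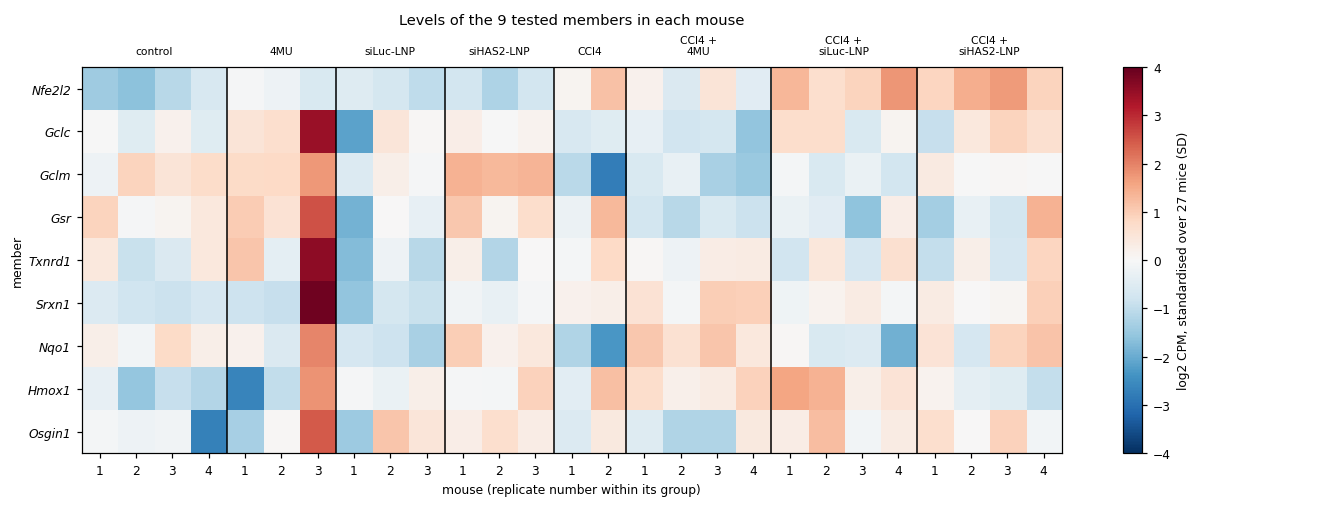
Log2 CPM of the 9 tested members, standardised over 27 mice, as colours from -4 to 4 SD, with a column for each mouse and lines between groups. The column of 4MU mouse 3 is red for every member but Nfe2l2 (score 2.31), and siLuc-LNP mouse 1 has the lowest score at -1.17.

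The nanoparticles without injury gave no member past the test, and in each comparison with 0 members called by edgeR outside the interactions, DESeq2 and limma-voom called 0 as well. In siLuc-LNP against control 0 of 9 passed (0.213% of genes, 1 member and 960 genes at an unadjusted p under 0.05), with Nqo1 at 10.2, 9.74 and 8.31 CPM in siLuc-LNP mice, below all control mice (log2 fold change -0.60, SE 0.248, adjusted p = 0.611). Groups were apart in that direction for 3.42% of genes. Hmox1 was apart in the other direction, at 18.7 to 21.8 CPM in siLuc-LNP mice and 12.6 to 18.3 CPM in control mice. Its log2 fold change was 0.34 to 0.53 with each mouse left out in turn. The share of all genes apart and higher in siLuc-LNP is not given here. In siHAS2-LNP against siLuc-LNP 0 of 9 passed (0.0425% of genes, 3 members and 1262 genes at an unadjusted p under 0.05). All siHAS2-LNP mice were above all siLuc-LNP mice for Nqo1 (17.9, 13.6 and 14.8 CPM, log2 fold change 0.71, SE 0.263, adjusted p = 0.38), Gclm (0.41, adjusted p = 0.323), Gsr (0.52, adjusted p = 0.542) and Srxn1 (0.38, adjusted p = 0.78). This made 4 of 9 members, against 8.21% of genes. For Gsr the lowest siLuc-LNP mouse was mouse 1, which had the lowest members' score of all 27 mice (-1.17).

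Among CCl4-treated mice, Nqo1 was higher with 4MU and with siHAS2-LNP than with CCl4 alone. The CCl4 + 4MU mice were at 18.6, 15.9, 18.8 and 14.8 CPM, all above the CCl4 mice at 8.57 and 5.84 CPM, a 2.37-fold difference (log2 fold change 1.24, SE 0.293, adjusted p = 0.00589). The CCl4 + siHAS2-LNP mice were at 15.4, 10.3, 17.4 and 19.0 CPM, also above (2.15-fold, 1.10, SE 0.293, adjusted p = 0.0145). The CCl4 + siLuc-LNP mice were at 13.01, 10.5, 10.7 and 6.72 CPM and overlapped the CCl4 mice (0.51, SE 0.286, adjusted p = 0.439). Groups without overlap and a higher level were found for 22.9% of genes with 4MU, 18.3% with siHAS2-LNP and 6.95% with siLuc-LNP. These 3 comparisons share the 2 CCl4 mice. Without CCl4 mouse 2 the log2 fold change was 0.96 (adjusted p = 0.172) with 4MU and 0.82 (adjusted p = 0.277) with siHAS2-LNP, and with limma-voom the latter was 0.99 (adjusted p = 0.0849). Nqo1 was 1 of 9 members past the test with 4MU, against 18.3% of genes (2 members and 4777 genes at an unadjusted p under 0.05). Gsr was apart in the other direction with 4MU, at 33.7 to 38.7 CPM against 43.0 and 65.6 CPM in CCl4 mice, and did not pass. Its log2 fold change was -0.86 to -0.27 with each mouse left out in turn. The share of all genes apart and lower with 4MU is not given here. No member passed with siLuc-LNP (0 of 9, 0.248% of genes, 1 member and 2001 genes at an unadjusted p under 0.05).

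Gclm was the other of 2 of 9 members past the test in CCl4 + siHAS2-LNP against CCl4, where 14.4% of genes passed. The CCl4 + siHAS2-LNP mice were at 249.5, 232.9, 235.6 and 232.3 CPM, all above the CCl4 mice at 189.2 and 135.1 CPM (log2 fold change 0.55, SE 0.150, adjusted p = 0.017). Without CCl4 mouse 2 the value was 0.30 with an adjusted p of 0.416. The call was also lost without the filter on low counts (0.53, adjusted p = 0.172) and with only the compared groups fitted (0.54, adjusted p = 0.113). CCl4 + siLuc-LNP mice, at 201.5 to 228.9 CPM, were above the CCl4 mice too (0.41, SE 0.149, adjusted p = 0.208). Pericentral marker sums were 2109 to 2948 CPM in CCl4 + 4MU and 1729 to 2803 CPM in CCl4 + siHAS2-LNP, against 572 to 919 CPM in CCl4 and 651 to 2152 CPM in CCl4 + siLuc-LNP, and their part in Nqo1 and Gclm was not tested.

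**Figure D5:**
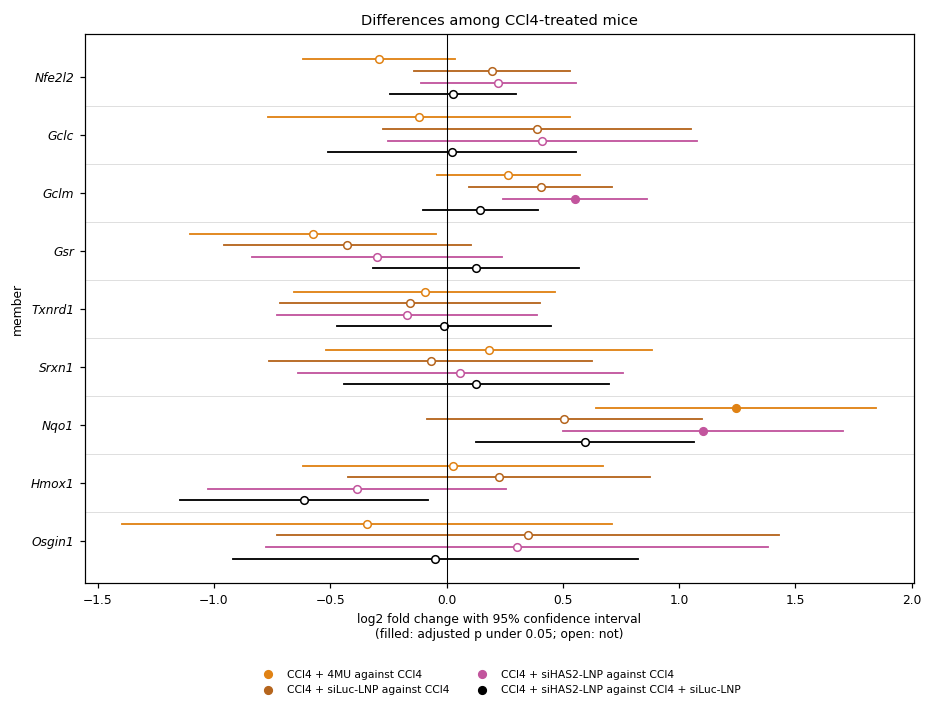
Log2 fold change among CCl4-treated mice for 4 comparisons, with 95% confidence intervals, for the 9 tested members, filled where the adjusted p is under 0.05. The filled points are Nqo1 at 1.24 with 4MU and 1.10 with siHAS2-LNP, and Gclm at 0.55 with siHAS2-LNP.

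Against the nanoparticle control, siHAS2-LNP in CCl4-treated mice gave 0 of 9 members past the test (1.09% of genes, 2 members and 2349 genes at an unadjusted p under 0.05). The 2 were Nqo1 (log2 fold change 0.60, SE 0.227, adjusted p = 0.176), whose groups overlapped, and Hmox1 (-0.61, SE 0.259, adjusted p = 0.229). For Hmox1 the CCl4 + siHAS2-LNP mice were at 21.1, 17.9, 17.4 and 15.1 CPM and the CCl4 + siLuc-LNP mice at 33.0, 31.0, 21.7 and 23.9 CPM. All of the former were below all of the latter, as were those of 3.52% of genes. Monocyte and macrophage marker sums were 277 to 485 CPM in CCl4 + siHAS2-LNP and 499 to 1228 CPM in CCl4 + siLuc-LNP, and their part in Hmox1 was not tested. Gclm was apart in the other direction, at 232.3 to 249.5 CPM in CCl4 + siHAS2-LNP and 201.5 to 228.9 CPM in CCl4 + siLuc-LNP mice. It did not pass, with a log2 fold change of 0.090 to 0.17 when each mouse was left out in turn. The share of all genes apart in that direction is not given here. For Nfe2l2 the difference was 0.03 with a 95% confidence interval of -0.24 to 0.30. Slc7a11, pooled over mice, was at 0.523 and 0.918 CPM, a ratio of 0.569 (95% exact interval 0.383 to 0.833, counting error only), and its mice overlapped. Without CCl4 + siHAS2-LNP mouse 1 the ratio was 0.309 (0.166 to 0.538), and without mouse 3 it was 0.794 (0.530 to 1.17).

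In CCl4 + 4MU against CCl4, 12 of 66 pathway genes were higher and 3 lower (22.7%, against 18.3% of all genes). Without CCl4 mouse 2, 184 genes passed in this comparison in place of 2580. Of 23 detoxification and export genes 8 were higher, led by the glutathione transferases Gstm3 (2.91, SE 0.831, adjusted p = 0.0178), Gstm1 (1.84, SE 0.394, adjusted p = 0.00317) and Gstm2 (1.55, SE 0.449, adjusted p = 0.0195), and by Akr1b7 (1.48, adjusted p = 0.0365). Cat was at 1896 ± 224 CPM (SD, n = 4) with 4MU and at a mean of 873.2 CPM in the 2 CCl4 mice, against 2335 ± 180 CPM in control (1.12, adjusted p = 0.0056). Gpx1 (1.23), Chac1 (95% confidence interval 0.92 to 3.88), which degrades glutathione, and Mafg (0.78) were also higher. Gss (-0.45), Blvra (-0.62) and Bach2 (-1.18) were lower. In CCl4 + siHAS2-LNP against CCl4 + siLuc-LNP 0 of 66 passed by edgeR in either direction, with 11 at an unadjusted p under 0.05.

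Whether the injury response itself differed between arms was tested by interaction terms, and no member passed in any of the 3 with edgeR, while DESeq2 called 2 and limma-voom 1 for 4MU and neither called any for the others. For 4MU with CCl4, Nfe2l2 had a difference of log2 fold changes of -0.65 (SE 0.213, adjusted p = 0.065, against 5.67% of genes past the threshold), and the adjusted p was 0.0281 with DESeq2. Nqo1 had 1.04 (SE 0.375, adjusted p = 0.0871) and Gsr -1.02 (SE 0.345, adjusted p = 0.0729). At an unadjusted p under 0.05 were 5 of 9 members and 3603 of 14114 genes. Without CCl4 mouse 2 the values were -0.45 for Nfe2l2, 0.77 for Nqo1 and -0.70 for Gsr. Without 4MU mouse 3 they were -0.71, 1.48 and -0.75, and Nqo1 passed by edgeR (adjusted p = 0.0306). For siLuc-LNP with CCl4, where 0.00709% of genes passed, the largest were Nqo1 (1.10, SE 0.379, adjusted p = 0.343) and Gclm (0.58, SE 0.197, adjusted p = 0.342). For siHAS2-LNP against siLuc-LNP with CCl4, where 0.0354% of genes passed, the largest was Hmox1 (-0.75, SE 0.394, adjusted p = 0.491).

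The members' likeness to each other from mouse to mouse is given without a test. Over the 36 pairs of the 9 tested members, the median of Spearman's rho was 0.024 among the 14 CCl4-treated mice (from -0.55 to 0.68, 20 pairs above 0) and 0.36 among the 13 others (from -0.25 to 0.87, 31 pairs above 0). The points share libraries and their scaling, and 4MU mouse 3 is among the 13. Each set pools its treatment groups without removing group means, so rho mixes differences between treatments with those between mice. By the lower of the rho in both sets, the genes most like the members' score were Slc11a2 (0.67 and 0.68), Ptpn9 (0.64 and 0.69), Ncbp2 (0.63 and 0.75), Nkrf (0.68 and 0.63) and Foxn2 (0.61 and 0.63), of 12830 candidates. Most like Nqo1 were Car14 (0.77 and 0.74), Hgd (0.72 and 0.82) and Slc25a51 (0.71 and 0.74). Most like Hmox1 were Cx3cl1 (0.82 and 0.76), Tmem132a (0.82 and 0.75) and C1qtnf6 (0.78 and 0.73). These are descriptions of rank likeness.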

How the data were processed

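Poly(A) RNA of whole liver from 27 mice was sequenced in pairs on a NextSeq500 with a directional NEBNext kit. The authors trimmed reads with Trimmomatic 0.39, aligned them with HISAT2 (version not given in the sources used here) to GRCm39 with the annotation of Ensembl release 105, and counted read pairs per gene with featureCounts, where multimapping reads were left out. The strand setting of the counting is not given in the sources used here. The deposited values are raw counts, whole numbers for 55414 genes, neither normalised nor filtered.

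Symbols and positions came from GENCODE vM39 (54749 of 55414 identifiers matched). The low-count filter of the study's methods, a mean of 10 or more reads per library, left 14114 genes, which entered 1 edgeR fit of all 8 groups (edgeR 4.0.16, R 4.3.3) with TMM scaling, the quasi-likelihood test and Benjamini-Hochberg adjustment over all tested genes, with a threshold of 0.05. CPM use the TMM-scaled totals. A floor of 3 counts is 0.102 to 0.426 CPM by library. The fit was tested on simulated data. DESeq2 1.42.0 and limma 3.58.1 were alternatives, with others given at the end. Figures used matplotlib 3.10.9 and intervals scipy 1.17.1.

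The members and gene lists were chosen with earlier results of these data known. All 10 members are named. Of the pathway lists, at most the 4 largest changes past the threshold per list are named, in the average of the 4 arms, in 4MU against control, in CCl4 + 4MU against CCl4 and in CCl4 + siHAS2-LNP against CCl4 + siLuc-LNP. The genes most like a pattern are the 5 (members' score) or 3 (Nqo1, Hmox1) with the highest of the lower rho in both sets of mice, without predicted genes. Samples were grouped by their titles. The study's methods give more fibrotic mice per group than the libraries analysed here.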

Additional observations from a re-analysis of the deposited data

Results flagged for a closer look

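Control mouse 4 stood apart from the other control mice for Osgin1, at 57.7 CPM against 196.9, 186.8 and 190.7 CPM. Its gap to the nearest mouse was 0.957 of the group's range on the log2 scale, above Dixon's 95% critical value for groups of 4. This was 1 of 36 such checks, and chance gives about 5% of them.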

How the results depend on the processing

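Of the 13 member results past the threshold, none changed sign under any of 201 alternative values (DESeq2, limma-voom with quality weights, DESeq2 size factors, no filter on low counts, the replicate block, fits of the compared groups only, and each mouse left out), 190 stayed past the threshold and 11 did not. Nfe2l2 in the siLuc-LNP and siHAS2-LNP arms and both members in the average of the 4 arms stayed past it throughout. The calls in CCl4 against control, CCl4 + 4MU against CCl4 and CCl4 + siHAS2-LNP against CCl4 were lost without CCl4 mouse 2 and those of Gclc and Gsr in the 4MU arm without 4MU mouse 3. In CCl4 + siHAS2-LNP against CCl4, Gclm was also lost without the filter and with only the compared groups, and Nqo1 with limma-voom. Gclm in the siHAS2-LNP arm passed with DESeq2 and limma-voom. Srxn1 and Hmox1 passed as higher in the 4MU arm without 4MU mouse 3. Slc7a11 ratios without single mice were chosen after seeing the data. A fit of the compared groups could not be made for the average of the 4 arms, which uses all 8. Where a mouse left out leaves 1 in CCl4, that mouse is assumed to vary like the other groups. Depth limits Slc7a11, and Has2 at 0 to 2 counts. The cause of each change was not tested.

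With DESeq2, the number of genes past the threshold was 51 (from 1) for 4MU against control, 67 (from 30) for siLuc-LNP against control, 77 (from 6) for siHAS2-LNP against siLuc-LNP, 295 (from 35) for CCl4 + siLuc-LNP against CCl4, 412 (from 154) for CCl4 + siHAS2-LNP against CCl4 + siLuc-LNP, 1481 (from 800) for interaction of 4MU with CCl4, 39 (from 1) for interaction of siLuc-LNP with CCl4 and 67 (from 5) for interaction of siHAS2-LNP with CCl4. There the members past it numbered 2 (from 1) for CCl4 + siHAS2-LNP against siHAS2-LNP and 2 (from 0) for interaction of 4MU with CCl4. Uncalled members of opposite sign (log2) were Osgin1 -0.017 for CCl4 + siHAS2-LNP against siHAS2-LNP, Hmox1 -0.0024 for CCl4 + 4MU against CCl4 and Nfe2l2 -0.0015 and Gclc -0.0049 for CCl4 + siHAS2-LNP against CCl4 + siLuc-LNP.

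With limma-voom, the number of genes past the threshold was 3455 (from 1812) for CCl4 + siHAS2-LNP against siHAS2-LNP, 2 (from 1) for 4MU against control, 84 (from 30) for siLuc-LNP against control, 171 (from 6) for siHAS2-LNP against siLuc-LNP, 175 (from 35) for CCl4 + siLuc-LNP against CCl4, 1322 (from 2038) for CCl4 + siHAS2-LNP against CCl4, 12 (from 154) for CCl4 + siHAS2-LNP against CCl4 + siLuc-LNP, 7 (from 1) for interaction of siLuc-LNP with CCl4 and 0 (from 5) for interaction of siHAS2-LNP with CCl4. There the members past it numbered 2 (from 1) for CCl4 + siHAS2-LNP against siHAS2-LNP, 1 (from 2) for CCl4 + siHAS2-LNP against CCl4, 4 (from 2) for CCl4 averaged over the 4 arms and 1 (from 0) for interaction of 4MU with CCl4. Uncalled members of opposite sign (log2) were Srxn1 0.064 for CCl4 + 4MU against 4MU, Osgin1 -0.11 and Gsr -0.12 for CCl4 + siLuc-LNP against siLuc-LNP, Osgin1 -0.10 for CCl4 + siHAS2-LNP against siHAS2-LNP, Nqo1 -0.054 for 4MU against control, Gclc 0.13 for siLuc-LNP against control, Osgin1 -0.18 for siHAS2-LNP against siLuc-LNP, Txnrd1 0.11 for CCl4 + siHAS2-LNP against CCl4 + siLuc-LNP, Txnrd1 0.035 for CCl4 averaged over the 4 arms, Srxn1 -0.011 and Txnrd1 -0.043 for interaction of siLuc-LNP with CCl4 and Osgin1 0.0066 and Gclc 0.0088 for interaction of siHAS2-LNP with CCl4.

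With DESeq2 size factors in edgeR, uncalled members of opposite sign (log2) were Osgin1 -0.017 for CCl4 + siHAS2-LNP against siHAS2-LNP, Hmox1 -0.0032 for CCl4 + 4MU against CCl4 and Nfe2l2 -0.0020 and Gclc -0.0050 for CCl4 + siHAS2-LNP against CCl4 + siLuc-LNP.

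Without the filter, the number of genes past the threshold was 136 (from 1) for 4MU against control, 143 (from 30) for siLuc-LNP against control, 158 (from 6) for siHAS2-LNP against siLuc-LNP, 427 (from 35) for CCl4 + siLuc-LNP against CCl4, 656 (from 154) for CCl4 + siHAS2-LNP against CCl4 + siLuc-LNP, 1386 (from 800) for interaction of 4MU with CCl4, 197 (from 1) for interaction of siLuc-LNP with CCl4 and 304 (from 5) for interaction of siHAS2-LNP with CCl4. There the members past it numbered 5 (from 3) for CCl4 + 4MU against 4MU, 3 (from 0) for 4MU against control, 1 (from 2) for CCl4 + siHAS2-LNP against CCl4, 1 (from 0) for CCl4 + siHAS2-LNP against CCl4 + siLuc-LNP, 4 (from 2) for CCl4 averaged over the 4 arms and 4 (from 0) for interaction of 4MU with CCl4. Uncalled members of opposite sign (log2) were Osgin1 -0.031 for CCl4 + siHAS2-LNP against siHAS2-LNP and Gclc -0.0016 for CCl4 + siHAS2-LNP against CCl4 + siLuc-LNP.

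With only the compared groups fitted, the number of genes past the threshold was 1518 (from 3418) for CCl4 + siLuc-LNP against siLuc-LNP, 0 (from 1) for 4MU against control, 10 (from 30) for siLuc-LNP against control, 1 (from 35) for CCl4 + siLuc-LNP against CCl4, 0 (from 154) for CCl4 + siHAS2-LNP against CCl4 + siLuc-LNP, 1297 (from 800) for interaction of 4MU with CCl4, 0 (from 1) for interaction of siLuc-LNP with CCl4 and 0 (from 5) for interaction of siHAS2-LNP with CCl4. There the members past it numbered 1 (from 2) for CCl4 + siHAS2-LNP against CCl4 and 1 (from 0) for interaction of 4MU with CCl4. Uncalled members of opposite sign (log2) were Osgin1 -0.014 for CCl4 + siHAS2-LNP against siHAS2-LNP and Gclc -0.0022 for CCl4 + siHAS2-LNP against CCl4 + siLuc-LNP.

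Replicate numbers were not taken to pair the mice. Same-numbered mice of different groups had correlations of deviations from -0.32 to 0.29 (median -0.017, 83 pairs). For other-numbered mice of different groups they ran from -0.46 to 0.46 (median -0.012, 234 pairs). A pairing that left little trace in expression would not be seen by this check. With the replicate block, the number of genes past the threshold was 17 (from 35) for CCl4 + siLuc-LNP against CCl4, 12 (from 154) for CCl4 + siHAS2-LNP against CCl4 + siLuc-LNP, 0 (from 1) for interaction of siLuc-LNP with CCl4 and 2 (from 5) for interaction of siHAS2-LNP with CCl4. Uncalled members of opposite sign (log2) were Gsr -0.0033 for CCl4 + siLuc-LNP against siLuc-LNP, Txnrd1 -0.018 and Nqo1 0.022 for CCl4 + siHAS2-LNP against siHAS2-LNP, Hmox1 -0.0099 for CCl4 + 4MU against CCl4, Srxn1 -0.10 for CCl4 + siHAS2-LNP against CCl4, Gclc -0.011 for CCl4 + siHAS2-LNP against CCl4 + siLuc-LNP and Srxn1 -0.11, Nfe2l2 -0.040 and Txnrd1 -0.045 for interaction of siLuc-LNP with CCl4. Gsr in the average of the 4 arms passed with the block (adjusted p = 0.040), and the block changed no other member call.

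With each mouse left out in turn, the number of genes past the threshold ranged over 0 to 1 for 4MU against control, 2150 to 3154 for CCl4 + 4MU against 4MU, 184 to 2601 for CCl4 + 4MU against CCl4, 4 to 243 for CCl4 + siHAS2-LNP against CCl4 + siLuc-LNP, 108 to 1914 for CCl4 + siHAS2-LNP against CCl4, 1036 to 1773 for CCl4 + siHAS2-LNP against siHAS2-LNP, 7 to 1076 for CCl4 + siLuc-LNP against CCl4, 2145 to 4468 for CCl4 against control, 20 to 1197 for interaction of 4MU with CCl4, 0 to 26 for interaction of siHAS2-LNP with CCl4, 0 to 247 for interaction of siLuc-LNP with CCl4, 1 to 9 for siHAS2-LNP against siLuc-LNP and 14 to 28 for siLuc-LNP against control. The members past it ranged over 0 to 1 for CCl4 + 4MU against CCl4, 0 to 2 for CCl4 + siHAS2-LNP against CCl4, 0 to 3 for CCl4 against control, 2 to 4 for CCl4 averaged over the 4 arms and 0 to 2 for interaction of 4MU with CCl4. Of single mice, leaving out CCl4 mouse 2 gave 2145 genes for CCl4 against control, 184 for CCl4 + 4MU against CCl4 and 108 for CCl4 + siHAS2-LNP against CCl4. Leaving out 4MU mouse 3 gave 2150 for CCl4 + 4MU against 4MU, CCl4 + 4MU mouse 4 gave 1651 against CCl4, CCl4 + siHAS2-LNP mouse 3 gave 1235 against CCl4, and siHAS2-LNP mice 1, 2 and 3 gave 1103, 1036 and 1056 in the siHAS2-LNP arm. For CCl4 + siLuc-LNP against CCl4 the count was 196 without CCl4 mouse 1 and 10, 9, 7 and 1076 without CCl4 + siLuc-LNP mice 1, 2, 3 and 4. For CCl4 + siHAS2-LNP against CCl4 + siLuc-LNP it was 58, 4 and 15 without CCl4 + siHAS2-LNP mice 2, 3 and 4 and 6, 243 and 30 without CCl4 + siLuc-LNP mice 1, 3 and 4. Members uncalled with all mice fitted whose sign turned ranged (log2) over Hmox1 -0.33 to 0.73, Nqo1 -0.24 to 0.44 and Srxn1 -0.072 to 1.31 for 4MU against control. For CCl4 + 4MU against 4MU they ranged over Hmox1 -0.062 to 1.00, Nqo1 -0.18 to 0.49 and Srxn1 -0.73 to 0.66. They ranged over Hmox1 -0.30 to 0.41 and Txnrd1 -0.26 to 0.049 for CCl4 + 4MU against CCl4, Gclc -0.12 to 0.17, Gsr -0.14 to 0.26, Nfe2l2 -0.049 to 0.083, Osgin1 -0.19 to 0.15 and Txnrd1 -0.15 to 0.082 for CCl4 + siHAS2-LNP against CCl4 + siLuc-LNP, Gsr -0.58 to 0.0073 and Srxn1 -0.040 to 0.10 for CCl4 + siHAS2-LNP against CCl4, Gclc -0.0042 to 0.24, Nqo1 -0.10 to 0.16, Osgin1 -0.13 to 0.11 and Txnrd1 -0.091 to 0.17 for CCl4 + siHAS2-LNP against siHAS2-LNP. The ranges were Hmox1 -0.087 to 0.62 and Txnrd1 -0.31 to 0.0036 for CCl4 + siLuc-LNP against CCl4, Gclc -0.0013 to 0.54, Gsr -0.12 to 0.25, Nqo1 -0.018 to 0.30 and Osgin1 -0.22 to 0.53 for CCl4 + siLuc-LNP against siLuc-LNP, Gsr -0.21 to 0.39 for CCl4 against control, Osgin1 -0.22 to 0.12 and Txnrd1 -0.074 to 0.12 for CCl4 averaged over the 4 arms. For the interactions they ranged over Gclm -0.15 to 0.35, Hmox1 -0.72 to 0.36 and Srxn1 -1.13 to 0.25 for interaction of 4MU with CCl4, Gclc -0.46 to 0.092, Nfe2l2 -0.0085 to 0.14, Nqo1 -0.30 to 0.031 and Osgin1 -0.55 to 0.22 for interaction of siHAS2-LNP with CCl4, Gsr -0.30 to 0.30, Hmox1 -0.52 to 0.19, Nfe2l2 -0.18 to 0.23, Osgin1 -0.58 to 0.17, Srxn1 -0.030 to 0.15 and Txnrd1 -0.0056 to 0.32 for interaction of siLuc-LNP with CCl4, Gclc -0.069 to 0.46, Hmox1 -0.020 to 0.21, Nfe2l2 -0.11 to 0.0064 and Osgin1 -0.27 to 0.47 for siHAS2-LNP against siLuc-LNP and Gclc -0.32 to 0.22 for siLuc-LNP against control.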

Other observations

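With Pearson's r in place of Spearman's rho over the same 14 CCl4-treated and 13 other mice, the genes most like the members' score were Ikbkg, Zscan29, Foxn2, Nrip1 and Trmt61b, of which Foxn2 (0.63 and 0.77) was also among those by rho. Hgd (0.77 and 0.86) for Nqo1 and Cx3cl1 (0.76 and 0.71) for Hmox1 were named by both measures. These are descriptions of likeness, and the mice share libraries, their scaling and 4MU mouse 3. Treatment groups were pooled in each set here too.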
